A study of Mus musculus with 4 samples.

Results

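Prrx1, Twist1 and Alx4 encode transcription factors of the limb bud mesenchyme, and the Pitx1 ChIP-seq peaks around these 3 genes are described here. Members were the peaks with a midpoint in 1 of 3 windows of the mm9 mouse genome. The Prrx1 window is chromosome 1 from 164700000 to 165700000, the Twist1 window is chromosome 12 from 33900000 to 35000000, and the Alx4 window is chromosome 2 from 93000000 to 94000000. The windows held 62 of the 14753 replicate 1 peaks and 102 of the 25027 replicate 2 peaks. A peak counted as replicated if at least 1 bp of it was also in a peak of the other list. Joined peaks formed 51 replicated regions, of 10274 in all. The chromatin came from whole hindlimb buds of ICR mouse embryos, wild type in genotype, at stage E11.5. The series has 2 Pitx1 ChIP libraries, made with an antibody to Pitx1, and 2 libraries of input chromatin with no antibody, and each label gives material from 3 ChIPs. Peak lists are given for the ChIP libraries only, and the series has 1 condition, so the comparisons below are between the windows and the rest of the 19 autosomes. Whole buds hold several cell types, and the lists have no expression values with which to check the tissue.

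Pitx1 is a homeodomain transcription factor made in the hindlimb and not in the forelimb, where it takes part in hindlimb outgrowth and in giving the limb its hindlimb form. Prrx1 is a paired-related homeodomain factor made throughout the early limb mesenchyme and needed for limb and facial skeleton growth, and regulatory DNA of this gene is widely used to drive Cre in limb mesenchyme. Twist1 is a basic helix-loop-helix factor needed for limb bud outgrowth and for signalling between the mesenchyme and the apical ectodermal ridge. Sequences inside the neighbouring gene Hdac9, a histone deacetylase, have been described as limb enhancers of Twist1. Alx4 is an aristaless-like homeodomain factor of the anterior limb mesenchyme, and mice that lack it have extra anterior digits.

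The RefSeq annotation at hand is of another build, GRCm38.p6, so it was used for gene order and promoter sequence only. There Prrx1 lies between Mroh9 and Gorab among protein-coding genes, Twist1 between Ferd3l and Hdac9, and Alx4 between Cd82 and Ext2. Promoters of 2 of the 3 genes were matched, and the 250 bases before each start are shown because they are the sequence at hand that belongs to the genes themselves. Factors of the bicoid class, to which Pitx1 belongs, favour the letters TAATCC. Capitals mark each TAATC, the first 5 of these 6 letters, on either strand. The Prrx1 promoter is chr1:163313651-163313900 on the minus strand and the Twist1 promoter is chr12:33957421-33957670 on the plus strand, both in GRCm38.p6.
Prrx1: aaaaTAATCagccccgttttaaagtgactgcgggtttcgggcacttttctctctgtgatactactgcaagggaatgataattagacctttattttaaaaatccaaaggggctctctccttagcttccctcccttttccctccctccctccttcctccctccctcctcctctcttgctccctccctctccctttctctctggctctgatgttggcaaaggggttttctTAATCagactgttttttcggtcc
Twist1: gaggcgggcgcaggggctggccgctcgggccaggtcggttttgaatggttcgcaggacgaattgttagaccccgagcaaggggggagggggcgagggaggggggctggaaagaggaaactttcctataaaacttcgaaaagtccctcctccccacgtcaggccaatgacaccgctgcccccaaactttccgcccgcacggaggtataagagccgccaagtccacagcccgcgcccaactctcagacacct
TAATCC was in neither stretch. TAATC was present at 2 places in the Prrx1 stretch and at 0 in the Twist1 stretch. Among 32851 promoter stretches of the same length, 6.25% held TAATCC and 19.8% held TAATC, which includes every TAATCC. The Prrx1 stretch was 47.6% G or C and the Twist1 stretch 62.4%, with a median of 52.4% over all stretches. Whether a Pitx1 peak covers either stretch was not determined, since positions were not carried between builds.

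All 3 windows held more replicated Pitx1 regions per Mb than the rest of the autosomes, and the Prrx1 window held the most. The Prrx1 window had 27 replicated regions, or 27.0 per Mb (95% exact Poisson interval 17.8 to 39.3), against 4.10 per Mb in the rest of the autosomes. Its rate was 6.58 times that of the rest (exact interval 4.34 to 9.58). The Twist1 window, which is 1.1 Mb long, had 12 regions or 10.9 per Mb (interval 5.64 to 19.1), 2.66 times the rest (1.37 to 4.64). The Alx4 window also had 12 regions, at 12.0 per Mb (6.20 to 21.0), 2.92 times the rest (1.51 to 5.11). Each interval lay above 1, but intervals reflect counting error alone, and would be wider if the grouping of peaks were allowed for.

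The same counts can be read against adjoining stretches of the autosomes of equal length, which had a median of 3 replicated regions. Of 2460 such stretches of 1 Mb, 7 (0.285%) had as many regions as the Prrx1 window or more. For the Alx4 window this was 151 stretches (6.14%), and for the Twist1 window 160 of 2235 stretches of 1.1 Mb (7.16%). Counts as high as at Prrx1 were thus rarer along the autosomes than counts as high as at Twist1 or Alx4. Between the windows, the rate at Prrx1 was 2.48 times that at Twist1 (exact interval 1.21 to 5.36) and 2.25 times that at Alx4 (1.10 to 4.88). The rates at Twist1 and Alx4 had a ratio of 0.909 (0.374 to 2.21) and did not differ beyond counting error.

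**Figure D1:**
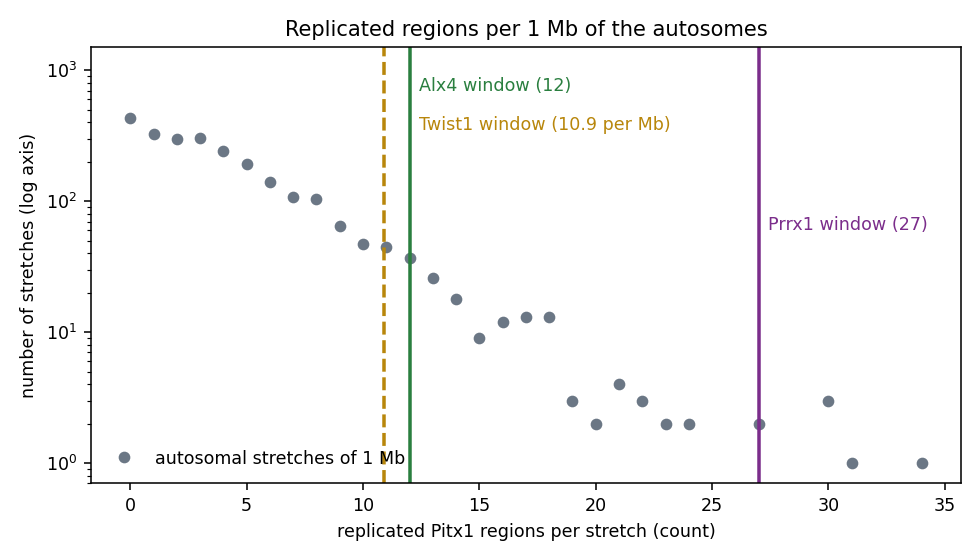
Number of adjoining autosomal stretches of 1 Mb (y axis, log scale) by the count of replicated Pitx1 regions in each (x axis), with lines for the Prrx1 window (27), the Alx4 window (12) and, as a rate, the Twist1 window (10.9 per Mb). The Prrx1 line stands in the sparse right tail, which reaches 34, and the other lines stand where each count has between 37 and 47 stretches.

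Rates of peaks in each library taken alone were also above the rest. Each replicated region holds a peak of both lists, so these rates are not independent of the counts above. In replicate 1 the Prrx1 window had 32 peaks (32.0 per Mb against 5.89 in the rest), the Twist1 window 16 (14.5 against 5.90 per Mb) and the Alx4 window 14 (14.0 against 5.90 per Mb). In replicate 2 the Prrx1 window had 42 peaks (42.0 against 10.004 per Mb), the Twist1 window 32 (29.1 against 10.01 per Mb) and the Alx4 window 28 (28.0 against 10.01 per Mb). The Prrx1 excess by replicate 2 peaks alone, 4.20-fold, lay below the interval from replicated regions. Replicated regions covered 3.21% of the Prrx1 window, 1.17% of the Twist1 window and 0.949% of the Alx4 window, against 0.388% of the rest of the autosomes.

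**Figure D2:**
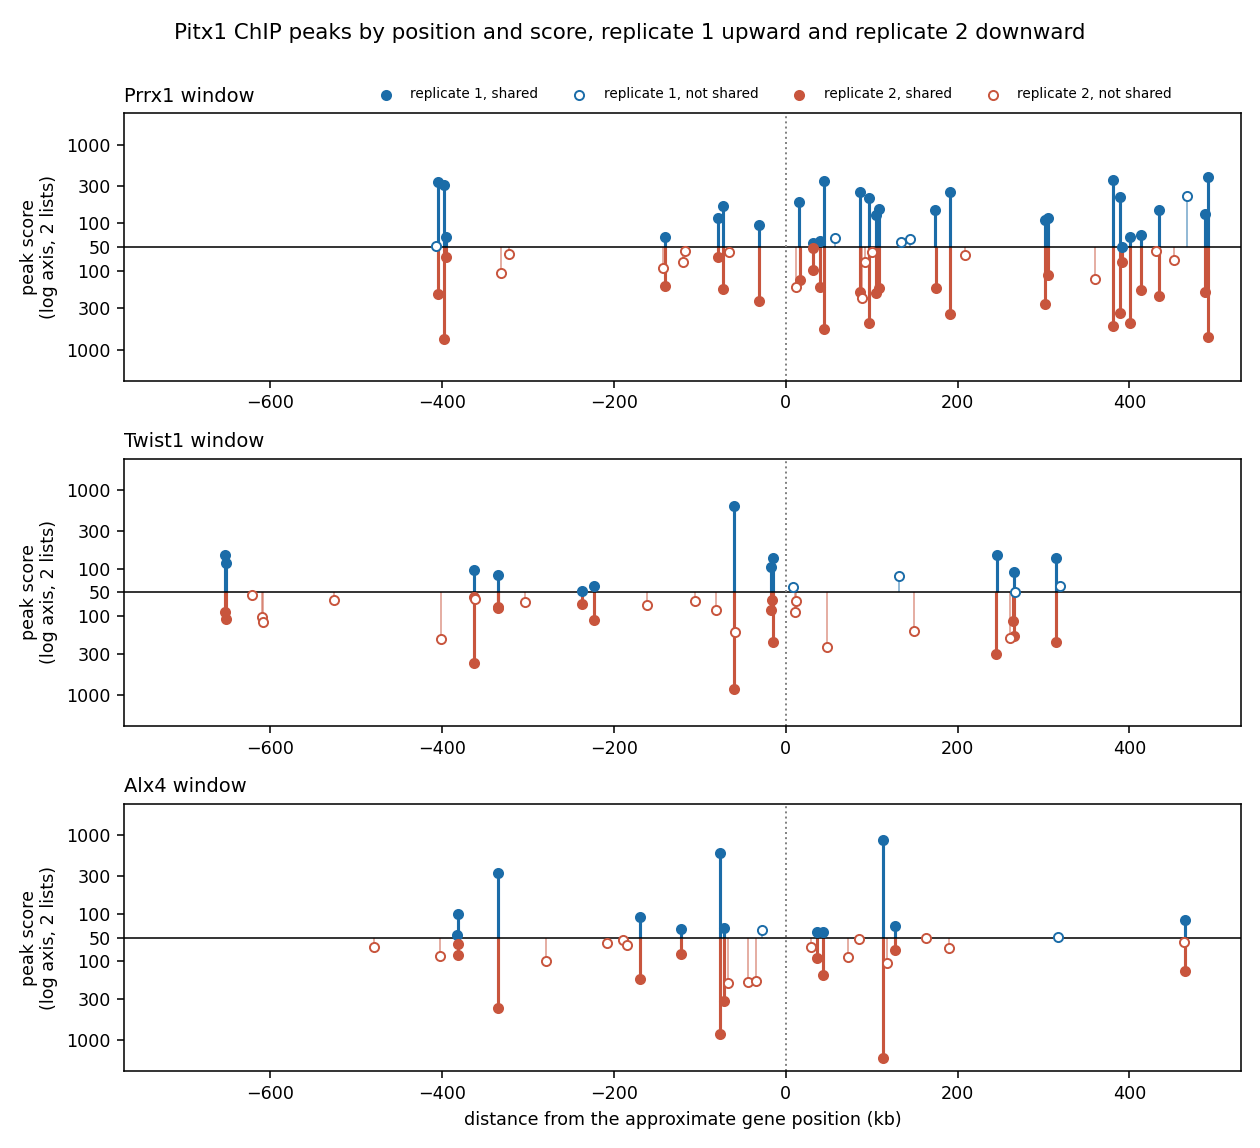
Every Pitx1 peak of the 3 windows by its distance from the approximate gene position in kb (x axis) and its score (y axis, log scale from 50 outward), with replicate 1 upward and replicate 2 downward; the Prrx1 and Alx4 windows span -500 to 500 kb and the Twist1 window -740 to 360 kb. Filled points overlap a peak of the other replicate and open points do not; the Prrx1 window is filled with many peaks of moderate score, and the Twist1 and Alx4 windows have a few tall peaks among low ones.

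Peak strength is given by the score that the authors' peak caller wrote for each peak, with its rank in its own list, where rank 1 is strongest. Lists are not on 1 scale, so scores are not compared in size between replicates. Regions were ordered over the 10145 autosomal replicated regions by the sum of their ranks in the lists. Ranks were not scaled to list length, so the longer replicate 2 list weighs more in this order. Distances are from an approximate gene position, given as 165.2 Mb for Prrx1, 34.64 Mb for Twist1 and 93.5 Mb for Alx4. These are known to 0.1 Mb for Prrx1 and Alx4 and to 0.01 Mb for Twist1, so distances do not place a peak in a promoter, an exon or an intron.

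At Prrx1 the replicated regions were many, close together and of widely differing strength. The strongest was near the upper edge of the window, on chromosome 1 from 165690606 to 165691684, 491.1 kb above the gene position. It scored 384 in replicate 1 (rank 443 of 14753) and 695 in replicate 2 (rank 430 of 25027), which made it region 324 of the autosomes. The second lay on the other side, from 164801365 to 164802713, 398.0 kb below the gene position, with scores of 311 (rank 747) and 733 (rank 376). Strong Pitx1 regions thus stood near both ends of the Prrx1 window.

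The third region of the Prrx1 window was the longest of all 51. It ran from 165242869 to 165245882, 3014 bp, at 44.4 kb above the approximate gene position, and scored 346 in replicate 1 (rank 572) and 550 in replicate 2 (rank 707). Its peak was 2510 bp wide in replicate 1, a width that 0.199% of autosomal peaks reached, and 3014 bp in replicate 2, which 0.0324% reached. Of all autosomal replicated regions, 0.0986% were as long or longer. It was therefore unusual for its width in both lists, and less so for its score.

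The fourth region, from 165580516 to 165581871, scored 360 and 501 in replicates 1 and 2, and its midpoints in the lists were 14.0 bp apart. The fifth, from 165296185 to 165296991, scored 208 and 454. The sixth, from 165391028 to 165392017, scored 251 and 349, and the seventh, from 165588229 to 165589139, 220 and 341. All 4 scored above 200 in each list. The eighth region, from 164794981 to 164796104, had rank 633 in replicate 1 but 4229 in replicate 2, and the ninth, from 165285607 to 165287267, had ranks 1138 and 4708. The tenth, from 165633607 to 165634312, was at ranks 2827 and 3954. The remaining 17 regions scored 50.1 to 190 in replicate 1 and 65.8 to 460 in replicate 2. Of the 27 Prrx1 regions, 5 were in the best 10% of autosomal replicated regions (18.5%, Wilson interval 8.18 to 36.7%) and 4 were in the weakest 25% by rank (14.8%, 5.92 to 32.5%). Their median percentile, where lower is stronger, was 31.6 (exact interval of the median 18.3 to 50.3), against 50.1 in the rest, a value the interval includes. In the best 50% of each list, with percentiles ranked anew among the regions left, the Prrx1 median was 48.7.

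Replicated regions at Prrx1 lay close together, and part of them in groups. Neighbouring midpoints were a median of 11.2 kb apart (interval 6.50 to 42.8 kb), against 88.7 kb over the autosomes. In the best 50% of each list the Prrx1 gap was 35.3 kb. A group was counted where 3 or more regions followed each other at under 10 kb. The Prrx1 window had 4 groups with 13 of its 27 regions (48.1%, Wilson interval 30.7 to 66.0%), against 5.99% of autosomal regions. A higher density by itself gives more groups, and no comparison at equal density was made. The largest group had 4 regions over 21.0 kb, from 165580516 to 165601496, and holds the fourth and seventh strongest regions. A second group, from 165230947 to 165245882, spanned 14.9 kb and holds the 3014 bp region. The others ran from 165296185 to 165308518 and from 164794981 to 164805041. Of the 27 regions, 20 lay above the approximate gene position and 7 below it. No replicated region lay between 200 and 300 kb from it on either side, and the widest gap was 255.1 kb.

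At Twist1 a single strong region stood among weaker ones. It ran on chromosome 12 from 34579082 to 34580188, 60.4 kb below the gene position, and scored 633 in replicate 1 (rank 102) and 836 in replicate 2 (rank 261). This made it region 136 of the 10145 autosomal regions. Its midpoints in the lists differed by 32.0 bp. The next Twist1 region, from 34884636 to 34885917, was region 1908, with scores of 151 (rank 2789) and 303 (rank 2210). The strongest region was thus the only one of 12 in the best 10% (8.33%, Wilson interval 1.49 to 35.4%), and the median percentile of the window, 47.0 (interval 27.2 to 74.5), was close to the 50 of the rest. It lay between 35.1 and 67.5 under the alternatives, on either side of 50.

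The closest replicated regions to the Twist1 position were a neighbouring pair. The region from 34624816 to 34625833 lay 14.7 kb below the gene position and scored 135 and 217 in replicates 1 and 2. The region from 34622872 to 34623828 lay 16.7 kb below it and scored 104 and 83.4. Midpoints of the pair were 1.97 kb apart. Farther down, the region from 34276697 to 34278174 scored 97.4 in replicate 1 (rank 5637) and 390 in replicate 2 (rank 1433), where it was split into 2 peaks. A second pair, from 33986549 to 33987287 and from 33987874 to 33988642, lay 1.34 kb apart and 653.1 and 651.7 kb below the gene position. It stood higher in the replicate 1 list, with ranks of 2798 and 4132 in replicate 1 and 12358 and 9647 in replicate 2.

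Above the Twist1 position, on the side of Hdac9 in the GRCm38 gene order, the window had 3 replicated regions. Besides the second strongest these were the regions from 34954219 to 34955501 (scores 135 and 211) and from 34904577 to 34906284 (91.4 and 180). All 3 lay 245.3 to 314.9 kb from the gene position, and no replicated region lay nearer on that side. Which of them fall inside Hdac9 was not determined. Of the others, the region from 34416616 to 34417409 scored 60.4 and 113, and the remaining 2 scored 52.3 to 82.1 in replicate 1 and 70.2 to 78.2 in replicate 2. No group of 3 regions under 10 kb apart occurred in the Twist1 window, and the median gap was 43.7 kb (interval 1.97 to 260.0 kb), against 88.7 kb over the autosomes. By the peaks of 1 library it was smaller, at 23.8 kb without replicate 1 and 28.0 kb without replicate 2.

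The Alx4 window held the strongest Pitx1 region of all 51. It ran on chromosome 2 from 93612396 to 93613496, 112.9 kb above the gene position, and scored 872 in replicate 1 (rank 34 of 14753) and 1679 in replicate 2 (rank 25 of 25027). Only 16 of the 10145 autosomal regions had a lower sum of ranks. The second Alx4 region, from 93422458 to 93423328, lay 77.1 kb below the gene position, with scores of 588 (rank 132) and 841 (rank 254), and was region 145. The third, from 93164335 to 93165353, scored 332 (rank 641) and 388 (rank 1441). These strong regions stood on both sides of the gene position and had 1 or 2 other replicated regions within 50 kb.

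After these 3 the Alx4 regions were much weaker. The fourth, from 93330560 to 93331098, was region 4467, with scores of 91.6 and 169. The fifth, from 93428048 to 93428846, was at rank 9798 in replicate 1 (67.2) and at rank 2053 in replicate 2 (316), and lies 5.55 kb from the second strongest region. No Alx4 region had a percentile between 7.64 and 44.0. The sixth, from 93964536 to 93965320, scored 82.6 and 132 and was 338.4 kb from its nearest neighbour. A pair above the gene position, from 93543333 to 93544086 and from 93536505 to 93537056, shared a score of 58.7 in replicate 1 and scored 151 and 89.8 in replicate 2. The ninth, from 93377543 to 93378253, scored 65.2 and 79.9, and the tenth, from 93118557 to 93119151, scored 99.6 and 60.9. The 2 others scored 53.2 and 70.0 in replicate 1 and 83.3 and 71.8 in replicate 2. Thus 3 of 12 Alx4 regions were in the best 10% (25%, Wilson interval 8.89 to 53.2%) and 5 were in the weakest 25% by rank (41.7%, 19.3 to 68.0%). The median percentile was 60.8 (interval 7.64 to 84.8), against 50 in the rest, and so was not apart from it. In the best 50% of each list, which kept 5 Alx4 regions, it was 14.3, on the stronger side. There the percentiles were ranked anew among the regions left, so 14.3 and 60.8 are not on 1 scale.

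Midpoints of paired peaks lay closest together at Alx4, by medians that were not tested. The median distance between the midpoints of the lists was 41.0 bp at Alx4, 104 bp at Prrx1 and 105.5 bp at Twist1, against 60.5 bp over the regions outside the windows. At Alx4, 11 of 12 regions had midpoints within 100 bp of each other, while the weakest, from 93117393 to 93118527, had 538 bp. At Prrx1 this was 12 of 27 regions and at Twist1 6 of 12. The same share was not counted for the rest, whose median of 60.5 bp is itself within 100 bp. The median length of replicated regions was 1079 bp at Prrx1, 987.5 bp at Twist1 and 769.5 bp at Alx4, against 862 bp in the rest.

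The scores of the lists went together across the 51 regions. Spearman's rho between replicate 1 and replicate 2 scores was 0.682 over all 51, against 0.558 over the other autosomal regions. Within the windows it was 0.661 at Prrx1 (27 regions), 0.601 at Twist1 (12) and 0.532 at Alx4 (12). These values describe regions of the same 2 libraries and are given without a test. The strongest region of each of the Twist1 and Alx4 windows was the strongest in both lists. At Prrx1 the region from 165690606 was strongest in replicate 1 and the one from 164801365 in replicate 2. A Prrx1 region with ranks far apart was that from 165600552 to 165601496, named after its values were seen, at rank 9558 in replicate 1 (68.3) and 1039 in replicate 2 (460).

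**Figure D3:**
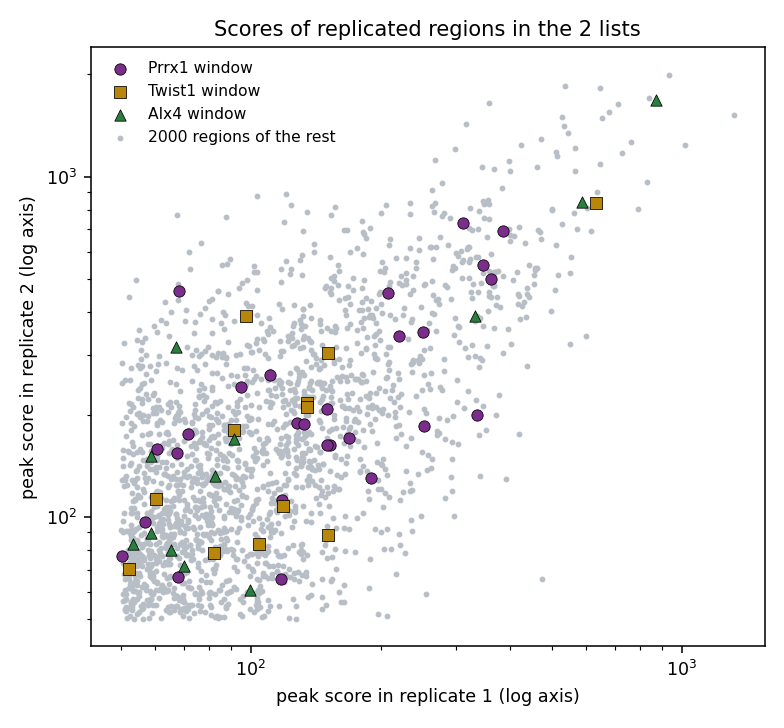
Score in replicate 1 (x axis) against score in replicate 2 (y axis), both on log axes, for the replicated regions of the Prrx1 (circles), Twist1 (squares) and Alx4 (triangles) windows, with 2000 regions drawn from the rest of the autosomes as grey points. The Alx4 region at 872 and 1679 stands at the upper right, followed by 1 more Alx4 region and 1 Twist1 region. Some grey points reach as far as these, and the other window points lie within the grey cloud.

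Replicate 2 peaks recurred more often at Prrx1 than in the rest of the autosomes, and the other shares of single windows were within counting error of the rest. Over all autosomes 69.9% of replicate 1 peaks and 42.6% of replicate 2 peaks overlapped a peak of the other list. In the Prrx1 window 27 of 32 replicate 1 peaks were shared (84.4%, Wilson interval 68.3 to 93.1%) and 28 of 42 replicate 2 peaks (66.7%, 51.6 to 79.0%). In the Twist1 window 12 of 16 replicate 1 peaks (75%, 50.5 to 89.8%) and 16 of 32 replicate 2 peaks (50%, 33.6 to 66.4%) were shared. In the Alx4 window these were 12 of 14 (85.7%, 60.1 to 96.0%) and 12 of 28 (42.9%, 26.5 to 60.9%). Of the 6 intervals, the replicate 2 interval at Prrx1 alone lay above the share in the rest, 42.5%. Over the 3 windows together 51 of 62 replicate 1 peaks (82.3%, 71.0 to 89.8%) were shared, against 69.8% in the rest. For replicate 2 these were 56 of 102 (54.9%, 45.2 to 64.2%). Both of these intervals lay above the rest, and Prrx1 gave 27 of the 51 and 28 of the 56 shared peaks. Of the peaks at hand, 19.05% of replicate 2 peaks at Prrx1 were in the best 10% of autosomal peaks, against 9.38% at Twist1 and 14.3% at Alx4. Peaks at Prrx1 were also wider at the median, at 624 bp against 456 bp in the rest for replicate 2 and 960.5 against 797 bp for replicate 1. The part of strength, width or peak density in the higher share was not tested.

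**Figure D4:**
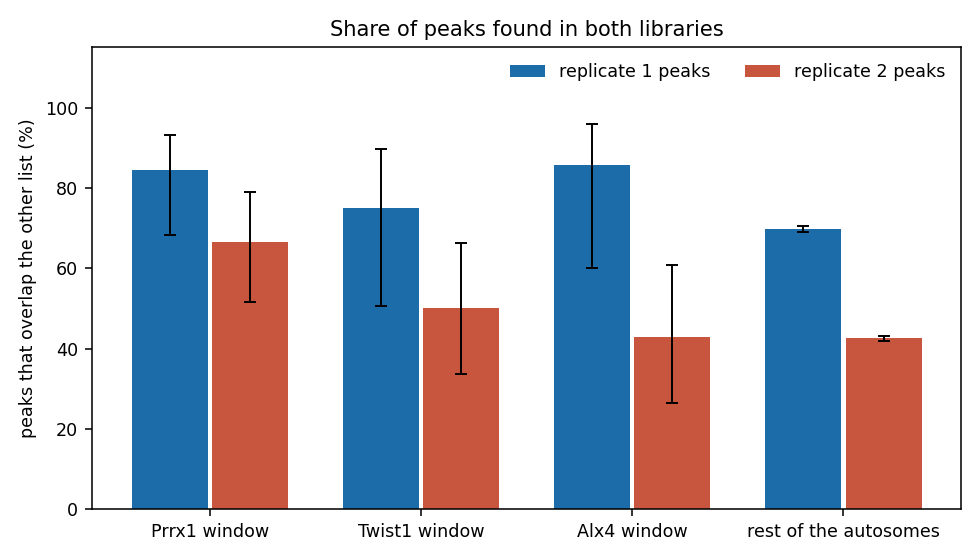
Share of replicate 1 and replicate 2 peaks (bars, %) that overlap a peak of the other list, for the Prrx1, Twist1 and Alx4 windows and then for the rest of the autosomes, with 95% Wilson intervals. The replicate 2 bar at Prrx1, 66.7%, has an interval that clears the 42.5% of the rest, and the other window intervals include the value of the rest.

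Peaks found in 1 library only were 11 in replicate 1 and 46 in replicate 2, and at the median they scored lower than shared ones. Their median score was 59.99 in replicate 1, against 118 for shared peaks of the windows, and 74.4 in replicate 2, against 166. The strongest unshared peak at Prrx1 was in replicate 1, on chromosome 1 from 165666399 to 165667804, 1406 bp wide. It scored 223 (rank 1412) and had no replicate 2 peak nearer than 14.1 kb. The strongest unshared replicate 2 peak there, from 165287853 to 165288757, scored 221 (rank 3556) and lay 585 bp from a replicate 1 peak. These show different situations. The first is a strong peak with no counterpart nearby, and the second lay beside a replicate 1 peak already shared, that of the ninth Prrx1 region.

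At Twist1 the strongest unshared replicate 2 peak ran from 34687350 to 34687881, 47.6 kb above the gene position, in the stretch with no replicated region. It scored 248 (rank 2996) and lay 39.0 kb from any replicate 1 peak. The strongest unshared replicate 1 peak at Twist1, from 34771507 to 34772665, scored 79.7 (rank 7643). At Alx4 the strongest unshared peaks were from 93432366 to 93432758 in replicate 2 (189, rank 4544) and from 93471558 to 93472213 in replicate 1 (62.9, rank 10814). Few unshared peaks lay within 1 kb of the other list. Within 1 kb of a replicate 1 peak were 1 of 14 unshared replicate 2 peaks at Prrx1, 2 of 16 at Twist1 and 0 of 16 at Alx4. Over the autosomes this was 686 of 14190 (4.83%). Of the unshared replicate 1 peaks, 1 of 4 at Twist1 lay within 1 kb of a replicate 2 peak, at 22 bp. None of the 5 at Prrx1 or the 2 at Alx4 did, and over the autosomes 286 of 4388 did (6.52%). In the windows, each of these close peaks lay beside a peak that already belonged to a replicated region. Within 5 kb of a replicate 1 peak were 6 of 14 unshared replicate 2 peaks at Prrx1, 5 of 16 at Twist1 and 3 of 16 at Alx4, against 15.1% over the autosomes. Of unshared replicate 1 peaks, 1 of 5 at Prrx1, 3 of 4 at Twist1 and 0 of 2 at Alx4 lay within 5 kb of a replicate 2 peak, against 19.5%. The windows also hold more peaks per Mb, and the part of peak density was not tested.

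Across the window limits, neighbouring replicated regions were closest at the upper end of the Prrx1 window. The outermost replicated regions lay 8.86 kb inside the upper limit at Prrx1 (scores 384 and 695) and 95.5 kb inside the lower limit (334 and 199). The first regions outside lay 73.9 kb beyond the upper limit (223 and 183) and 445.2 kb beyond the lower one (144 and 122). At Twist1 the outermost regions lay 45.1 and 86.9 kb inside the upper and lower limits, and the first outside 289.5 and 1046 kb beyond them. At Alx4 these were 35.1 and 118 kb inside, and 1979 and 87.9 kb outside.

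A further list deposited by the authors gives positions of 1 bp with no score. It had 28 positions in the Prrx1 window, 16 in the Twist1 window and 12 in the Alx4 window. All 56 shared replicate 2 peaks of the windows contained a position, as did 10496 of 10529 over all autosomes. Their median distance from the middle of the replicate 2 peak was 60 bp at Prrx1, 47.0 bp at Twist1 and 17.0 bp at Alx4, against 46.2 bp over all autosomes. The list had 10496 autosomal positions, the same number as the shared replicate 2 peaks that contained one. It may thus have been made from the same overlap of the lists, and is no separate check of the replicated regions.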

How the data were processed

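Pitx1 ChIP-seq peaks from 2 libraries were analysed. The submitters' processing notes name the build mm9 and list MACS 1.4.2, Bowtie 0.12.8, bedtools 2.16.2 and CASAVA (1.7, 1.8.2). Settings, roles and the handling of input: not given in the sources used here. The authors deposited 1 peak list per library, with a score for each peak, and a list of 1 bp positions. Scores were used to rank peaks within a list. Read counts were not used, so depth is unknown, and all intervals cover counting error only. The labels do not say whether the replicates came from separate litters.

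Peaks were joined where they overlapped by 1 bp. Rates are per Mb up to the last peak of each of 19 autosomes, with exact Poisson intervals; ratios have exact conditional intervals, shares Wilson intervals and medians exact binomial intervals, all at 95%. No test of significance was made. Up to 10 replicated regions a window, by sum of ranks, and the best unshared peak of each replicate are named; another region is marked. The windows, genes and measures were chosen with earlier results of these data known. The joining step was tested on simulated data. Coordinates are counted from 1. Peak sequences were not read, since no mm9 genome was used here. Alternatives were other definitions of a shared peak, fewer peaks, merging, narrower windows and each replicate alone. Values were computed in Python 3.11.15 with scipy 1.17.1, pandas 2.3.3 and numpy 2.4.6, and drawn with matplotlib 3.10.9.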

Additional observations from a re-analysis of the deposited data

How the results depend on the processing

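No paired analysis was possible because neither input library comes with peaks that a ChIP library of the same number could be set against. Of 134 recomputed values, 120 stayed within the interval or within 1.5 times of the value reported. The intervals of medians in the windows of 12 regions were wide, as for the Alx4 median percentile, 7.64 to 84.8. Staying within such an interval says little about stability. No rate moved to the other side of the rest, but median percentiles crossed 50: that of Alx4 was 14.3 in the best 50% of each list, and that of Twist1 ran from 35.1 to 67.5. Percentiles were ranked anew among the regions or peaks of each setting, except that merged regions kept their lowest percentile. These medians are therefore not all on the scale of the values reported. The rate in each window stayed above that of the rest of the autosomes in all 24 alternatives, and 23 of these intervals lay above 1. The exception was Alx4 in the best 50% of each list, at 2.27 times the rest (0.738 to 5.31), where 5 regions were left with a median gap of 178 kb. In the best 50% the Prrx1 window had 1 group of regions in place of 4. It had 2 groups with midpoints within 250 bp, with equal numbers of best peaks and in windows of 0.5 times the width, which held 14 regions at Prrx1 and 7 at Twist1. With equal numbers of best peaks 80% of replicate 2 peaks at Prrx1 were shared, and with reciprocal overlap of 50% 31.2% of those at Twist1. These settings keep fewer peaks, pairs or bases by construction.

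With each replicate left out in turn, peaks numbered 32 to 42 at Prrx1, 16 to 32 at Twist1 and 14 to 28 at Alx4, and the rate at Prrx1 was 4.20 to 5.43 times the rest. Each replicated region holds a peak of both lists, so rates from 1 replicate alone are no separate check of the excess. The median gap was 23.8 to 28.0 kb at Twist1 and 20.3 to 46.0 kb at Alx4. The Prrx1 excess of 6.58 thus was over 1.5 times that of replicate 2 alone. The unknown depth limits statements on peaks found in 1 library.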

Other observations

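The stretches next to the windows differed in their replicated Pitx1 regions. The stretch of equal length below the Prrx1 window had 20 replicated regions and the one above it had 8, beside the 27 in the window. Below and above the Twist1 window these were 1 and 4, beside 12 in the window. The Alx4 window, with 12, had 3 below and 0 above it. The median autosomal stretch of 1 Mb had 3, so both stretches next to the Prrx1 window were above the median. Their nearest regions lay 445.2 kb below and 73.9 kb above the window limits, so the 20 regions below were set apart from the window. The Twist1 and Alx4 windows adjoined sequence near or under the median.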
